A study of Mus musculus with 9 samples.

Results

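The 3 libraries made from livers at 3 months, of 9 libraries in the series, are described here by where their reads lay. They were chosen by the age given in the labels. The mice were C57BL/6N, and the other libraries came from livers at 12 months (3 libraries) and 18 months (3 libraries). All 9 were made by tissue native elongating transcript sequencing (tNET-seq): liver cells were fractionated down to chromatin and the RNA bound to it, with alpha-amanitin, which blocks RNA polymerase II (Pol II), present throughout, and the 3′ end of each RNA was recorded at single-base resolution. Per the study's methods the mice were male and 3 whole livers per age were processed, each fresh from 1 mouse. The labels number the libraries of an age without naming the animals, and p-values measure the spread between these libraries. Since whole livers were read, fewer cells of a type and less RNA per cell cannot be told apart.

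The 3-month libraries held 37373185, 37559524 and 48488772 reads on chromosomes 1 to 19 and the mitochondrial chromosome, which was 98.2% to 98.4% of their deposited reads. The other 6 libraries held 14754989 to 49893702. Between 84.4% and 86.0% of the 3-month reads lay in sense within one of 51266 annotated genes, that is, on the strand the gene is transcribed from, and only 2.10% to 2.20% could not be given to a single gene. Density is given as RPKM (reads scaled to the depth of the library, or RPM, per kb of gene or region), so that genes of different length can be compared.

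The 3′ end of an RNA still held by Pol II lies in the active site of the enzyme, so that a read of such an RNA marks a polymerase and its strand. In most active genes Pol II slows shortly after the transcription start site (TSS), in a step called promoter-proximal pausing. The transcript is cut at the end of the gene (TES), and the polymerase is released further downstream. RNA that is held in chromatin without a polymerase, such as a splicing intermediate, a small nuclear RNA or a ribosomal RNA fragment, also has a 3′ end and is read in the same way. The liver is a tissue in which hepatocytes make most plasma proteins and carry out the urea cycle, gluconeogenesis and lipid metabolism.

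The 8 positions with most reads within 200 bases of the TSS, 1 per gene, were taken from 2008 of the 2075 coding genes compared below, and genes outside these can hold deeper ones. They held 794 to 3370 reads in a library, and are shown because they show which letters lay under the deepest single-base pileups of these promoters. Whether these reads came from RNA held by Pol II or from other RNA in chromatin, such as ribosomal RNA fragments, was not tested. Each line gives 30 bases of the sense strand, 5′ to 3′, from the RefSeq GRCm38.p6 genome, and the capital marks the base at which the 3′ ends lay.
Tob1 (chr11:94211431-94211460, plus strand): gccgcggcagaaggaGcgaagctctggccc
Hdac4 (chr1:92180518-92180547, minus strand): cccgcgaagcggggcTggctgttgggctat
Csnk1e (chr15:79441824-79441853, minus strand): acacgcgcatccgcgCagggctgggggcgc
Clint1 (chr11:45851912-45851941, plus strand): ggcgcgcggcgcgggCggaaagccggccac
Alb (chr5:90460915-90460944, plus strand): ccccactagcctctgGcaaaatgaagtggg
Kdelr2 (chr5:143403760-143403789, plus strand): gggcgtggcgggggcGtggccccagcggtc
Tmem185b (chr1:119525945-119525974, plus strand): tttgcccgtgcacccCcaggctccggggcc
Lamc1 (chr1:153332720-153332749, minus strand): ggcgcacagtgcaggCtgcgcaccgggagg

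These positions were shared by the libraries. The base of Tob1, which encodes an antiproliferative protein, lay 8 bases before the TSS and held 3212, 2867 and 3370 reads in replicates 1, 2 and 3. The base of Alb, which encodes albumin, lay 33 bases after the TSS, in the first exon, with 1641, 1276 and 1636 reads. At Tmem185b 97.7% of the reads of the promoter window lay at this single base, compared with 11.7% at Alb and 24.5% at Tob1. The base of Tmem185b is the outermost of its window, 200 bases before the TSS, so reads further upstream were not counted in this share. The TSS used was that of 1 transcript per gene, the one with the longest coding sequence. Of the 8 positions, those of Tob1, Hdac4, Clint1, Kdelr2 and Tmem185b lay before this TSS, by 8 to 200 bases. Those of Csnk1e, Alb and Lamc1 lay after it, by 33 to 161 bases. The base of Hdac4 (92180532) lay inside the annotated gene (91928779 to 92195699, minus strand). The base of Csnk1e (79441838) did too (79417856 to 79455566, minus strand), so the TSS used was not the outermost start of these genes. Those of Alb and Lamc1 lay 20 to 60 bases after the TSS, the stretch in which top positions of other genes were frequent, as described below.

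Protein-coding genes held most of the 3-month reads. Their share was 66.1%, 63.1% and 66.2% in the 3 libraries, a mean of 65.1% ± 1.77 (SD, n = 3). Long non-coding RNA genes followed with 11.9% ± 0.433 (SD, n = 3), then positions outside genes of either strand with 9.90% ± 0.524 (SD, n = 3) and small non-coding RNA genes with 7.26% ± 0.689 (SD, n = 3). Bases that a small RNA gene shares with another gene were given to the small RNA gene, and over positions of exactly 1 gene the small RNA share was 1.00%. Reads antisense to a gene made up 4.77% ± 0.397 (SD, n = 3), the mitochondrial genes 0.560% ± 0.102 (SD, n = 3) and pseudogenes 0.374% ± 0.0263 (SD, n = 3). The order of the 6 largest classes was the same in each library.

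**Figure D1:**
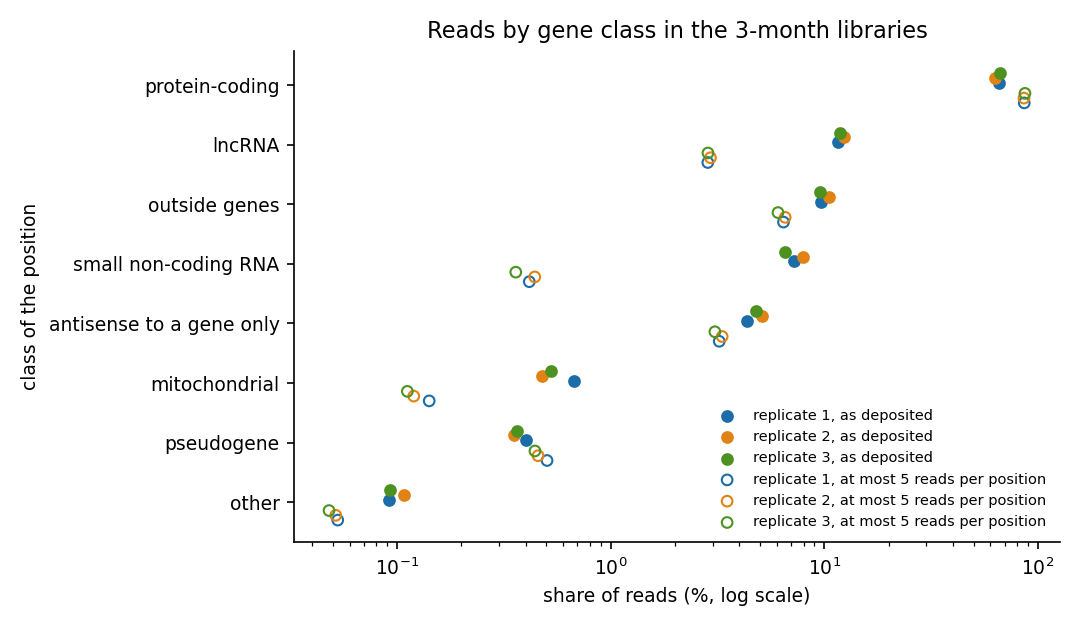
The share of reads (%, log scale) is plotted for each class of position, with 1 point per 3-month library, as deposited (filled) and after counting at most 5 reads per position (open). Protein-coding genes moved from 65.1% to 86.5% and small non-coding RNA genes from 7.26% to 0.406% when deep positions were counted as 5.

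The classes differed in how their reads were stacked. When no position was allowed more than 5 reads, 64.1% to 66.8% of the reads were kept, the protein-coding share was 86.5% ± 0.478 (SD, n = 3) and the lncRNA share 2.88% ± 0.0469 (SD, n = 3). The small RNA share was 0.406% ± 0.0418 (SD, n = 3), as is plotted for each library in the graph of class shares. Reads of coding genes were therefore spread over many bases, and those of small RNA genes lay on few. In the lncRNA class most reads came from 1 locus, described next, so the fall of its share need not hold for other lncRNA genes. In Neat1, the highest lncRNA outside this locus, the 10 top positions held 1.95% of reads. In the 2 genes of the locus, Gm26917 and Gm42418, they held 1.36% and 3.20%, so this measure does not set Neat1 apart from them.

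Most of the lncRNA reads came from a single locus. Gm26917 and Gm42418, annotated as adjacent lincRNAs on the plus strand of chromosome 17 (39843013 to 39846341 and 39846958 to 39848788), held 8.42%, 8.97% and 8.16% of all reads. RefSeq lists Gm42418 as a synonym of Rn18s-rs5, an 18S ribosomal RNA related sequence that it classes as a pseudogene. The remaining 9424 lncRNA genes together held 3.38% ± 0.274 (SD, n = 3). Among these, Neat1, the scaffold of nuclear paraspeckles, held 0.427%, 0.626% and 0.938%, so that it was lowest in replicate 1 and highest in replicate 3. Malat1, a nuclear retained RNA of speckles, differed much less, with 782, 830 and 820 RPKM.

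Small nucleolar RNA (snoRNA) genes, whose products guide modification of ribosomal and spliceosomal RNA, made up 5.61% ± 0.568 (SD, n = 3) of all reads, with bases shared with a host gene given to the snoRNA. Precursor genes of microRNAs held 0.445% ± 0.00403 (SD, n = 3) and small nuclear RNA (snRNA) genes 0.347% ± 0.0600 (SD, n = 3). The 3 highest genes were Snord118, the U8 snoRNA needed for ribosomal RNA processing, with 0.192%, 0.185% and 0.163% of reads, Snord104 with 0.110% ± 0.0114 (SD, n = 3) and Snord17 with 0.105% ± 0.00917 (SD, n = 3). Reads were concentrated at the 3′ ends of the mature RNAs. Within 5 bases of the annotated end lay 53.1%, 57.9% and 52.4% of snoRNA reads, against 7.89% of the bases. For the scaRNAs, guide RNAs of Cajal bodies, it was 70.7% to 77.1%, and for snRNAs 67.2% to 70.2%. For microRNA precursors it was only 13.4% to 16.1%, against 9.77% of the bases.

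RNAs of RNA polymerase III were also read. Of the 9 listed, 7 exceeded 1 RPKM in each library. Rny3, a Y RNA, reached 2174, 2692 and 2039 RPKM. Rmrp, the RNA of RNase MRP, reached 2080, 2460 and 2205 in its small RNA entry, beside which a lincRNA entry of the same name lies on the same bases. Rn7sk, which holds the elongation factor P-TEFb in an inactive complex, reached 1156, 1048 and 1226. Rn7s1 and Rn7s2, copies of the signal recognition particle RNA, were given at most 5 reads in any library, and the whole span of Rn7s2, part of which lies under another gene, held 10, 6 and 7. They are near copies of each other. The methods selected genes by their uniquely aligned reads, and they do not say whether the deposited positions hold only such reads.

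Mitochondrial reads were few and uneven along the chromosome. The ribosomal RNA gene mt-Rnr2 held the most of any gene, with 41278, 20194 and 38169 reads. The next by their means were mt-Rnr1 with 23579, 13073 and 22931, the leucine tRNA gene mt-Tl1 with 18338, 16369 and 20742 and mt-Co1 with 21412, 12130 and 19415, whose order differed between libraries. The 13 protein-coding genes together held 0.227%, 0.131% and 0.176% of all reads, with replicate 1 highest and replicate 2 lowest. mt-Cytb, which encodes cytochrome b, had 405, 217 and 327 RPKM. By contrast, mt-Co2, mt-Co3, mt-Atp6, mt-Atp8, mt-Nd3 and mt-Nd4l held 0 to 4 reads in each library. All or nearly all 50-base stretches of these 6 genes were also found on chromosome 1 (24611535 to 24616184). No such stretch was found for mt-Cytb, mt-Nd1, mt-Nd2, mt-Nd5 and mt-Nd6.

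**Figure D2:**
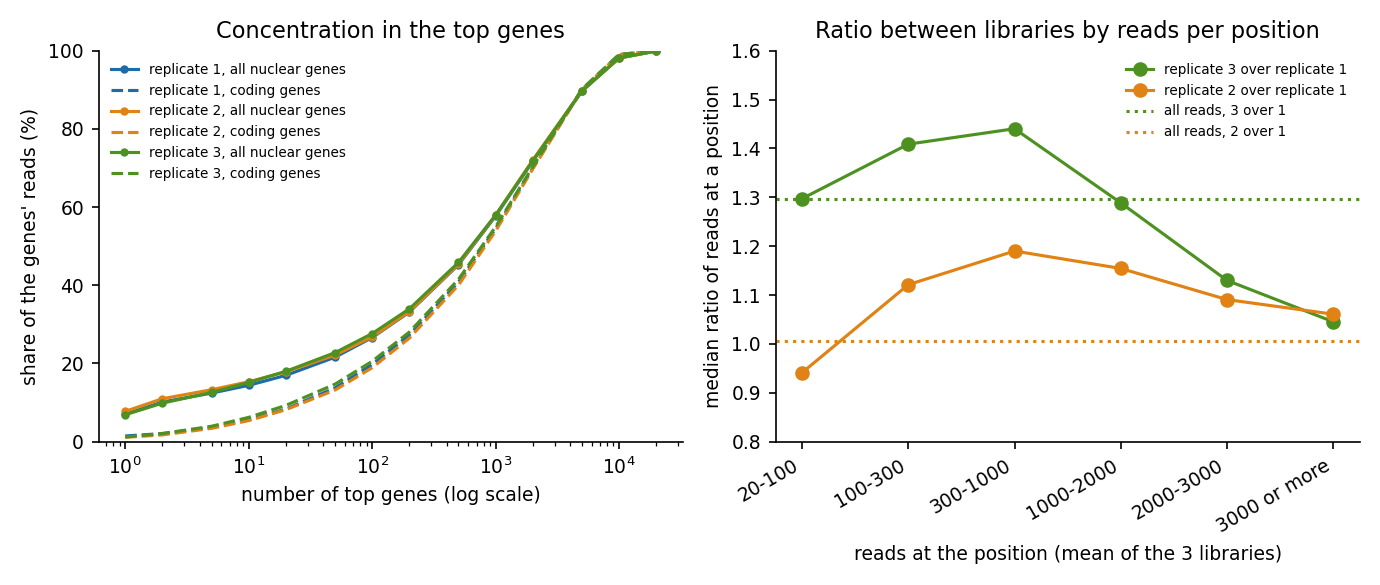
Left: the share of reads held by the top genes (%) against their number (log scale), for all nuclear genes (solid) and coding genes alone (dashed) of each 3-month library. Right: the median ratio of reads at a position between libraries, by the mean reads at the position. The dotted lines give the ratio of all reads. The ratio of replicate 3 to replicate 1 fell from 1.44 at 300 to 1000 reads to 1.05 at 3000 or more, while the libraries differed 1.30-fold.

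Reads were thinly spread at most positions. Between 79.2% and 82.3% of the nuclear positions with a read had exactly 1. Positions with over 100 reads numbered 16478, 17547 and 21077, and they held 26.1%, 29.6% and 26.9% of the nuclear reads. These deep positions recurred. Of the positions with at least 20 reads in one library, 96.8% to 98.6% had reads in both others.

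The highest counts per position did not scale with library depth. The deepest base held 5054, 5396 and 4929 reads, although replicate 3 had 1.30 times as many reads as replicate 1. At bases with 300 to 1000 reads on average, the median ratio of replicate 3 to replicate 1 was 1.44, and at 1000 to 2000 reads it was 1.29. It was 1.13 at 2000 to 3000 reads and 1.05 at 3000 or more, as the plot of ratios between libraries shows. Counts of the deepest positions were thus closer between libraries than depth would give, and the cause was not tested.

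A small number of genes held much of the nuclear signal. The 100 top genes held 26.6%, 26.8% and 27.6% of the reads of nuclear genes, a mean of 27.0% ± 0.552 (SD, n = 3). A total of 656 ± 9.54 (SD, n = 3) genes sufficed for 50% and 5080 ± 21.1 (SD, n = 3) for 90%. Without Gm26917 and Gm42418 the 100 top genes held 18.8% ± 1.02 (SD, n = 3). Among coding genes alone they held 19.7% ± 0.823 (SD, n = 3), and 808 ± 23.6 (SD, n = 3) genes sufficed for 50%. Of 20807 coding genes, 13799 (66.3%) had at least 10 reads in all 3 libraries, 4290 (20.6%) exceeded 1 RPKM in all 3, and 2249 had no read in any.

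Alb headed the coding genes, with 0.926%, 0.679% and 0.747% of all reads. Ttc39c, Egfr (the receptor of epidermal growth factor), Cdk8 (a kinase of the Mediator complex) and Cps1 (the first enzyme of the urea cycle) followed with means of 0.411%, 0.399%, 0.351% and 0.342%. The next were Adk, Apob, Ass1, Dpyd, Mtss1, Scd1 and Zbtb20, from 0.280% down to 0.204%. Replicate 3 was highest for Egfr, with 0.268%, 0.344% and 0.587%, and for Mtss1, with 0.177%, 0.191% and 0.314%. Long genes were prominent in this order because share rises with length. Dpyd, over 871 kb, ranked 9 by share and 1389 by density with 2.92 RPKM, and Zbtb20, over 767 kb, ranked 12 and 1558. Alb, over 15.7 kb, had 499 ± 81.4 RPKM (SD, n = 3) and ranked 2 by density.

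The ranks depended on the deep positions for some of these genes. With at most 5 reads per position Egfr ranked 1, Ttc39c 2, Adk 3 and Dpyd 4, whereas Alb ranked 60 and Scd1 103. In Alb itself only 2.63% of reads lay within 25 bases of its top position. Cdk8 was different. A stretch of 354 bases (chr5:146261016-146261369) held 97.4%, 97.6% and 97.5% of its reads, the rest of the gene had 1.21, 1.26 and 1.24 RPKM, and it ranked 4 without and 1044 with the limit of 5 reads. What RNA this stretch came from was not tested. Among 10830 coding genes with at least 100 reads on average, the share within 25 bases of the top position had a median of 2.30% to 2.5%. It was under 10% in all 3 libraries for 8545 genes (78.9%) and over 50% in all 3 for 456 genes (4.21%).

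Among the classes with few reads, the pseudogene Cyp2d38-ps held 0.0596% ± 0.00475 (SD, n = 3), Mug-ps1 0.0282% ± 0.00430 (SD, n = 3) and Gm5834 0.0237% ± 0.00288 (SD, n = 3). These lie in families of near-identical genes, and their values are uncertain. Of the remaining gene types, Gm37194 led with 0.0504% ± 0.0104 (SD, n = 3), of which 75.9% lay within 25 bases of 1 position. Gm10616 held 0.0122% ± 0.00348 (SD, n = 3) and Gm42777 0.000728% ± 0.000185 (SD, n = 3).

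Genes of plasma proteins stood high in density. Of 31 listed, 29 exceeded 1 RPKM in each library, with a list median of 29.3 RPKM, beside 0.142 RPKM over all coding genes. Counts over 1 RPKM in this and the following lists of coding genes stand beside 20.6% of all coding genes. Apoa2, a protein of high-density lipoprotein, was highest with 646, 426 and 506 RPKM. Alb had 590, 432 and 475 RPKM and Apoa1, the main protein of high-density lipoprotein, 503, 349 and 460. Ahsg, which encodes fetuin-A, had 150, 115 and 143. In these 4 genes replicate 1 was highest and replicate 2 lowest. Trf (transferrin) and Serpina3k, the other two members, were given no or almost no reads because annotated genes overlap them on the same strand. Counted over their whole span they had 96.6 and 115 RPKM on average, and with these values the list median was 55.0 RPKM and all 31 genes exceeded 1 RPKM.

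The 10 hepatocyte markers all exceeded 1 RPKM in each library, from 5.71 RPKM for the transcription factor Hnf4a to 499 RPKM for Alb. Of 7 urea cycle genes listed, the 6 found among the genes used did as well, and Otc was not among these. Ass1, which makes argininosuccinate, had 35.3, 51.8 and 67.1 RPKM, Cps1 29.7, 30.4 and 34.7, and Arg1, which releases urea, 31.6, 31.6 and 28.9. Ass1 differed almost 2-fold between replicates 1 and 3 and Arg1 hardly at all. The lowest were Slc25a15, the ornithine carrier, with 6.91 and Nags, which makes the activator of Cps1, with 6.82.

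Of 10 genes of gluconeogenesis and glycogen, 9 exceeded 1 RPKM in each library. Pck1, the committing enzyme of gluconeogenesis, had 125, 145 and 144 RPKM, and Tat, which degrades tyrosine, 51.4, 77.2 and 78.9. Sds, which degrades serine, had 17.2, 25.8 and 43.0, again lowest in replicate 1. G6pc, which releases free glucose, had 22.9, 24.1 and 21.1. The coactivator gene Ppargc1a was the exception at 0.562 RPKM on average.

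In lipid metabolism, 15 of 16 listed genes exceeded 1 RPKM in each library. Scd1, which introduces the double bond of oleate, led with 196, 142 and 141 RPKM. Fabp1, a fatty acid carrier, had 90.8, 69.7 and 84.7, and Fasn, the fatty acid synthase, 45.2, 42.7 and 33.6. All 14 genes of bile acid and cholesterol metabolism exceeded 1 RPKM, with a median of 3.21. Their highest values were for Slc10a1, the bile acid importer, with 12.9 ± 2.72 RPKM (SD, n = 3).

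Of 20 cytochrome P450 genes, 19 exceeded 1 RPKM in each library. Cyp2e1, which oxidises ethanol and other small molecules, had 111, 81.9 and 108 RPKM, and Cyp8b1, which makes cholic acid, 69.1, 47.1 and 50.9. Cyp2f2 followed with 23.2 and Cyp2d10 with 18.5 RPKM on average. Members of the Cyp2c, Cyp2d and Cyp3a families are near copies of each other, and their values are uncertain.

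Both ends of the liver lobule were represented. All 10 periportal genes exceeded 1 RPKM in each library, with a median of 29.7, and 6 of 10 pericentral genes did, with a median of 2.08. Pck1, Ass1 and Cps1 were among the highest periportal genes. Of the pericentral genes Cyp2e1, Glul (glutamine synthetase), Cyp1a2 and Gulo were given the most, with 100.4, 15.5, 11.4 and 4.55 RPKM on average. Oat, given no read because of an overlapping annotation, had 13.6 RPKM over its span, above Cyp1a2. With span values for Oat and for Rhbg, which also shares its positions, 7 of 10 pericentral genes exceeded 1 RPKM and the median was 3.53. The livers were not divided by zone.

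Genes of hepatocyte transcription factors lay lower than those of the secreted products. All 14 exceeded 1 RPKM in each library, with a median of 5.46. Cebpa had 55.8, 44.2 and 51.8 RPKM, Cebpb 27.6, 19.2 and 30.2, Rxra 19.3, 16.9 and 22.7, and Nr1i3, the constitutive androstane receptor, 17.3, 13.7 and 15.5. Onecut1 stood apart between libraries, with 1.36, 1.28 and 9.06 RPKM.

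In the circadian clock 8 of 15 genes exceeded 1 RPKM in each library, beside 20.6% of all coding genes. Nr1d1, the clock repressor REV-ERB alpha, had 19.9, 18.4 and 18.0 RPKM, and the output regulator Dbp 6.24, 10.1 and 7.89. Bhlhe40 had 4.89 and Tef 4.19 on average. The positive regulators Arntl and Clock were at 0.940 and 0.822, Npas2 at 0.127 and Cry1 at 0.190. The time of tissue collection was not used here.

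Of 15 immediate early genes, which respond first to a stimulus, 7 exceeded 1 RPKM in each library, beside 20.6% of all coding genes. Zfp36 (22.1, 23.6 and 27.7 RPKM) and Jund (23.6, 18.6 and 21.6) were highest, followed by Ier2 with 6.82 and Btg2 with 3.58 on average. Fos had 0.704, 0.590 and 0.774 RPKM. Among 15 genes of pausing and elongation factors, 12 exceeded 1 RPKM, led by Hexim1, and all lay between 0.157 and 3.34 on average.

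Markers of other liver cells were read at lower density. The counts over 1 RPKM below stand beside 20.6% of all coding genes. Of 11 markers of Kupffer and other immune cells found among the genes used, 7 exceeded 1 RPKM in each library, led by Cd5l with 6.75, 8.05 and 9.11 RPKM, Clec4f, Cd74 and C1qa. The endothelial list had 5 of 10, led by Clec4g with 2.93, 2.04 and 2.35 RPKM, Eng, Kdr and Ptprb. The stellate and fibroblast list had 2 of 10, Lrat (2.16 RPKM on average) and Dcn (1.13), with Colec11 and Hgf next. The red cell list had 3 of 4, led by Hbb-bs with 10.5 RPKM on average, Hbb-bt and Hba-a1.

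No cholangiocyte marker of 8 exceeded 1 RPKM in all 3 libraries. Sox9 was highest with 0.822, 0.760 and 0.570 RPKM, followed by Spp1 (0.647 on average), Muc1 and Krt19, and the lowest was Cftr with 0.00626. Summed over each list, the hepatocyte markers reached 1206 to 1607 RPKM in the 3 libraries. The endothelial markers reached 9.40 to 12.2, the immune markers 22.6 to 29.8, the stellate markers 6.41 to 7.46 and the cholangiocyte markers 1.64 to 2.16.

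**Figure D3:**
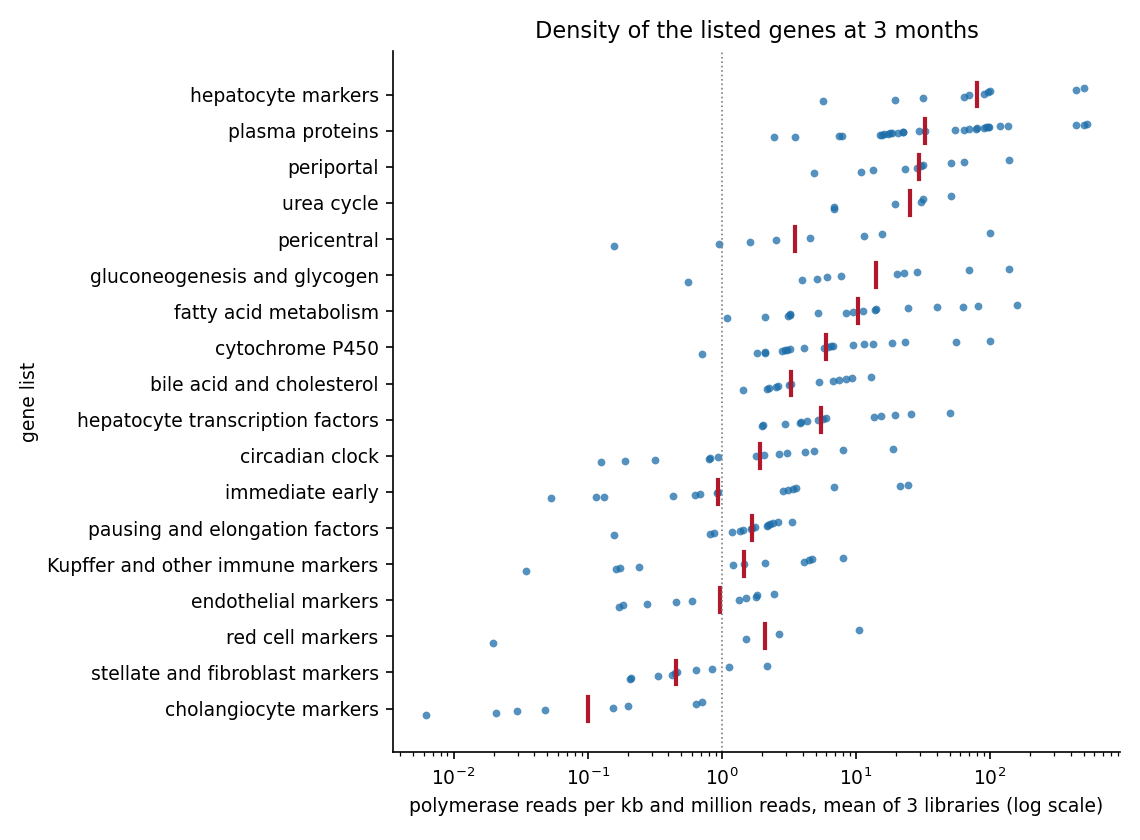
Each point is 1 listed gene at its mean density over the 3 libraries of 3 months (RPKM, log scale), with the median of the points of a list as a red line and 1 RPKM as a dotted line. Genes that shared their positions with overlapping genes are left out. Members of families of near copies, such as those among the cytochrome P450 genes, are kept. Hepatocyte markers and plasma proteins lie to the right and cholangiocyte markers all lie left of 1 RPKM.

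Replication-dependent histone genes were read in 7 of 10 cases above 1 RPKM, with Hist1h4h highest, followed by Hist1h1c, Hist1h4i and Hist2h4. Of 24 genes of cytosolic ribosomal proteins, 22 exceeded 1 RPKM, led by Rpl4 and Rpl8. Many of them carry snoRNA genes in their introns, and reads at a snoRNA were given to the snoRNA. Counted over its whole span Rps3 had 232 RPKM on average, of which 2.92% was given to Rps3 itself.

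Read density along genes was compared in 2075 coding genes that were longer than 2 kb, had no other coding gene within 2.5 kb and exceeded 1 RPKM on average. Over the 2027 with an intron, summed density was 9.16 ± 0.554 RPKM (SD, n = 3) within 200 bases of the TSS and 3.16 ± 0.0910 (SD, n = 3) in the gene body, which is the gene without 200 bases at either end. The promoter window thus had 3.03, 2.82 and 2.84 times the density of the body. From 20 to 100 bases after the TSS the density was 20.5 ± 1.96 RPKM (SD, n = 3), or 6.47 ± 0.519 (SD, n = 3) times that of the body. With at most 5 reads per position the window held 2.05 ± 0.158 (SD, n = 3) times the body density. Antisense to the genes, in a window of 700 bases upstream of the TSS, density was 1.09 ± 0.0668 RPKM (SD, n = 3).

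**Figure D4:**
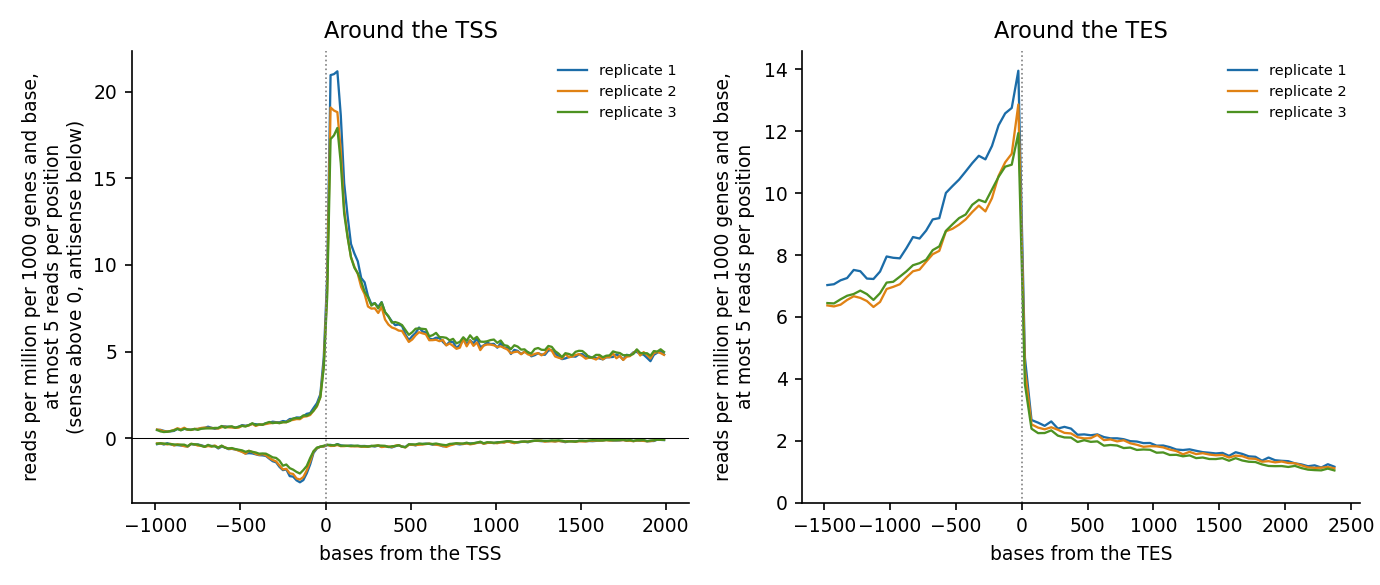
Mean reads along the tested genes around the TSS (left, bins of 20 bases, sense above 0 and antisense below) and the TES (right, bins of 50 bases), in RPM per base for 1000 genes, with at most 5 reads per position and 1 line per 3-month library. Sense signal peaks at 21.2, 19.1 and 17.9 after the TSS, antisense signal 141 to 160 bases before it, and signal is low after the TES.

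The profile around the TSS had the same form in the 3 libraries. Sense reads rose at the TSS and were highest 60 to 79 bases after it in replicates 1 and 3 and 20 to 39 bases after it in replicate 2. The antisense peak lay 141 to 160 bases before the TSS in each library, with a height of 2.55, 2.40 and 2.05 against 21.2, 19.1 and 17.9 on the sense strand. In 819 genes off chromosome 18 the top position of the promoter window had at least 5 reads in every library. The median distance of these positions was 61 bases after the TSS, 34.2% lay 20 to 60 bases after it, where 10.2% of the window lies, and 8.55% lay before it. The base at the top position was G in 50.8% of the genes, C in 25.6%, T in 16.7% and A in 6.84%. The base composition of the windows themselves was not computed.

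Gene by gene, the promoter window was denser than the body in 1404 of 2075 genes (67.7%) and less dense in 396 (19.1%), at an adjusted p under 0.05 in edgeR's quasi-likelihood test with Benjamini-Hochberg adjustment over all genes. The median log2 ratio was 0.91, and the medians of the libraries were 1.02, 0.89 and 0.85. The direction was the same in all 3 libraries in 1904 genes. The count depended on which body bases were compared. Against intronic bases 1562 genes were higher and 283 lower with a median of 1.49, and against exonic bases 584 were higher and 1060 lower with a median of -0.35.

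The ratio was larger in longer genes. In 4 groups of 518 or 519 genes, from body lengths under 10.2 kb to lengths over 51 kb, the median log2 ratio was 0.44, 0.81, 1.17 and 1.29, and the share of genes called higher was 53.6%, 64.4%, 73.9% and 78.8%. Of the leading genes, Cps1 had a log2 ratio of 2.44 (SE 0.12), Dpyd 2.36 (SE 0.10), Egfr 1.08 (SE 0.13) and Alb 0.76 (SE 0.08). Apob had 0.024 (SE 0.09), which did not pass the test, while Scd1 was lower in the window with -0.72 (SE 0.10).

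The highest ratios lay over single pileups. Among called genes with at least 20 reads in the window, the 5 highest were Steap1, Krt83, Lamc1 (log2 9.42), Hdac4 (9.10) and Csnk1e (8.53), with 99.1% to 100% of the window's reads within 25 bases of 1 position. In Steap1 the window held 516, 1284 and 1431 reads, with 1 position holding 458, 1127 and 1236, and the body had under 0.01 RPKM in each library. In Krt83 replicates 2 and 3 had no read in the body. The fitted ratios of these genes rest on few or no body reads and are not given. In all 5 genes the body was under 1 RPKM in each library, so that none would have passed the minimum on its body alone. The positions of Hdac4, Csnk1e and Lamc1 are among the sequences printed above. Among the 5 lowest were Rpl37 (-6.37), Rps13 (-5.67), Taco1 (-5.43) and Rpsa (-5.06), and these genes other than Taco1 hold annotated small RNA genes, such as Snord72 in Rpl37 and Snord14a in Rps13. With the positions of small RNA genes left out, Rpl37 had a ratio of 0.042 (adjusted p = 0.87), whereas Rps13 with -4.70 and Rpsa with -1.29 (adjusted p = 1.89e-07 and 0.0029) were still lower. With at most 5 reads per position Steap1, Lamc1 (4.21), Hdac4 (3.09) and Csnk1e (2.43) were still called higher, and Rps13 (-1.88), Rpl37 (-1.53) and Rpsa (-1.08) lower. Taco1 changed sign at this limit and no longer passed.

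By list, plasma protein genes were higher at the promoter in 11 of 20 tested and lower in 3, with a median log2 ratio of 0.33, beside 0.91 over all genes tested. Cytochrome P450 genes were higher in 11 of 15 and lower in 3, with a median of 0.79. Hepatocyte transcription factors were higher in 5 of 9 and lower in 1, with a median of 0.35. These counts stand beside 67.7% higher and 19.1% lower over all genes tested. Of the 4 immediate early genes tested, 2 were higher, among them Btg2 with a log2 ratio of 3.19, and 2 were lower.

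At the gene end the difference was smaller. Within 200 bases of the TES the summed density was 7.27 ± 0.873 RPKM (SD, n = 3), or 2.58, 2.17 and 2.15 times that of the body, and over the 2 kb after that window it was 1.23 ± 0.0810 RPKM (SD, n = 3), or 0.391 ± 0.0270 times (SD, n = 3). In the profile the signal was highest over the last 50 bases of the gene, at 13.9, 12.9 and 11.9, and low after the TES. By the same edgeR test 936 genes (45.1%) were higher in the TES window and 626 (30.2%) lower, with a median log2 ratio of 0.23. The part of this window before the TES ends in the last exon. In the 2027 genes with an intron, 79050646 of the 88881267 body bases were intronic. Exons of the body had a summed density of 11.1 RPKM, above that of the TES window. Unlike the promoter contrast, this one was not repeated against exonic bases. With the end of the coding sequence in place of the TES, 1615 were higher and 186 lower, with a median of 1.20.

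With the same minimum of 20 reads, the highest TES ratios were those of Evx2 (8.39), Cox7c (6.05), Mup12 (4.70), Aldh1a1 (4.45) and Mup11 (4.21). In Evx2 and Cox7c, a subunit of cytochrome c oxidase, 99.7% and 99.8% of the window reads lay within 25 bases of 1 position. In Aldh1a1, a retinaldehyde dehydrogenase, only 25.3% did. The body had only 0.0550, 0.0626 and 0.0848 RPKM in Evx2 and 0.166, 0.180 and 0.0989 in Mup12. Neither gene would have passed the minimum of 1 RPKM on its body alone. Mup11 and Mup12 belong to a family of near-identical genes, the major urinary proteins, and their values are uncertain. At the end of their coding sequence both ratios changed sign and passed as lower. Among the 5 lowest ratios were those of Rpl30 (-5.92), Fgb (-5.83), Hspa8 (-5.72) and Eif4g2 (-4.98). Of these, all but Fgb, the fibrinogen beta chain, hold small RNA genes. With the positions of these left out, the ratios of Hspa8 (-3.77), Eif4g2 (-2.82) and Rpl30 (-1.73) were nearer to 0 and still called lower. In Fgb the window had 1.94, 1.20 and 1.44 RPKM against 98.7, 67.9 and 90.6 in the body, and at the end of its coding sequence its ratio was 2.09 instead.

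Plasma protein genes were higher at the TES in 14 of 20 and lower in 6, with a median log2 ratio of 0.90, beside 45.1% higher, 30.2% lower and a median of 0.23 over all genes tested. All 20 were denser in exons than in introns, and the TES ratios were not repeated against exonic bases. Cps1 had a ratio of 1.17 (SE 0.11), Alb 0.82 (SE 0.10) and Zbtb20 0.68 (SE 0.14). Ttr, the carrier of thyroid hormone, was lower with -3.19 (SE 0.13), as were Egfr with -0.40 (SE 0.17) and Apob with -0.31 (SE 0.11). Hepatocyte transcription factors were higher in 2 of 9 and lower in 4.

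Exons were denser than introns in most of the genes tested. The summed density of the gene body was 11.1 ± 1.5 RPKM (SD, n = 3) in exons and 2.40 ± 0.0817 (SD, n = 3) in introns. Exons held 3.94, 3.16 and 3.39 times the body density, with replicate 1 highest. By the edgeR test 1823 of 2027 genes (89.9%) were higher in exons and 117 (5.77%) lower, with a median log2 ratio of 1.71, a 3.27-fold difference. The direction was the same in the 3 libraries in 1973 genes. Whether the exonic reads came from RNA held by Pol II or from spliced RNA in chromatin was not tested. With at most 5 reads per position 1866 were higher and 70 lower, and with 10 bases on each side of exon ends left out 1816 were higher and 116 lower.

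The size of the difference varied between lists. All 20 plasma protein genes tested were higher in exons, with a median log2 ratio of 3.51. Over all genes tested 89.9% were higher, with a median of 1.71. Alb had 5.99 (SE 0.34), Ttr 5.44 (SE 0.23) and Apob 3.62 (SE 0.25). All 15 cytochrome P450 genes (median 2.70) and all 9 lipid genes (median 1.88) were also higher, among them Scd1 with 6.40 (SE 0.28). Hepatocyte transcription factors were higher in 8 of 8, with a median of 1.12. In lists of few tested genes the median was 4.69 (2 stellate and fibroblast markers), 4.54 (4 immune markers) and 3.24 (3 endothelial markers). Ass1 had 0.61 (SE 0.20), Egfr 0.84 (SE 0.23) and Zbtb20 1.47 (SE 0.20).

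With at least 20 exonic reads, the 5 highest exon ratios included those of Rtp2, Fibcd1, Tlx3 and Vsig8, in which 99.8% to 100% of the exonic reads lay within 25 bases of 1 position. In Rtp2 a single base held 1436, 2054 and 2468 of 1463, 2086 and 2563 exonic reads, and the introns had under 0.01 RPKM. The fitted ratios of these genes rest on few or no intronic reads and are not given, and none of them would have passed the minimum on its introns alone. Among the 5 lowest were Rpsa (-8.71), Rpl37 (-7.39), Odc1 (-7.27) and Pabpc4 (-5.83), and each holds at least 1 small RNA gene. With the positions of small RNA genes left out, Odc1 (-5.83), Rpsa (-5.48) and Pabpc4 (-3.81) were still lower, and Rpl37 had 0.27 (adjusted p = 0.17). Of the 9 ribosomal protein genes tested, 4 were higher in exons and 5 lower, with a median of -2.77, beside 89.9% higher, 5.77% lower and a median of 1.71 over all genes tested. With the positions of small RNA genes left out, 5 of these 9 were higher and 4 lower, and their median turned to 1.22. Cdk8 was lower too, with -5.26 (SE 0.26), and its introns had 53.2, 60.3 and 56.2 RPKM and its exons 1.44, 1.33 and 1.65.

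Of the genes with all 3 contrasts, 667 were higher at the promoter, at the TES and in exons. Another 348 were higher at the promoter and in exons without passing the test at the TES, and 281 were higher in both but lower at the TES. In 65 genes all 3 ratios were lower.

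**Figure D5:**
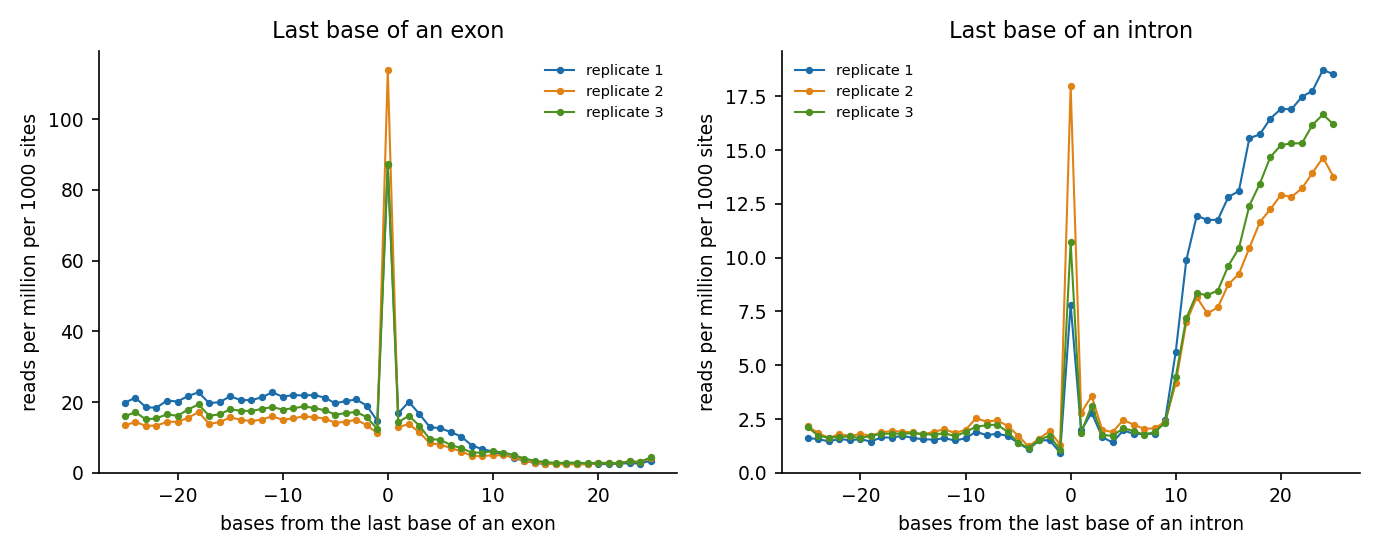
Reads at each base around the last base of an exon (left) and of an intron (right), in RPM for 1000 sites, with 1 line per 3-month library and 17933 sites. Both plots have a peak of a single base at 0, which is highest in replicate 2. At intron ends the exonic bases to the right reach as high or higher in replicates 1 and 3.

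Reads were also piled at the last bases of exons and introns, where the 3′ ends of splicing intermediates and released introns lie. Over 17933 splice sites of the tested genes, the last base of the exon held 58329, 76634 and 75883 reads. This was 4.22, 7.79 and 5.06 times the median of the 25 bases before it. With at most 5 reads per position it was 3.59, 5.44 and 3.85 times. The last base of the intron held 5241, 12108 and 9319 reads, or 4.99, 9.54 and 6.05 times the median of the bases before it. Replicate 2 was highest and replicate 1 lowest in both ratios. In the plot around splice sites the peak was 1 base wide. At intron ends the highest base of the window was the last intronic base in replicate 2, while in replicates 1 and 3 it was an exonic base 24 bases further on. Each of the first 9 exonic bases held 946 to 2718 reads, and the 25th held 12419, 9269 and 14088 in replicates 1, 2 and 3. The cause of this rise was not tested.

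The bases under deep intronic positions differed from those of all introns. Small RNA genes inside introns were not left out of these positions, and their part in them was not counted. Over all intronic positions with a read, 30.03%, 30.9% and 30.3% carried C and slightly more carried T (31.0%, 31.9% and 31.1%). Among intronic positions with at least 5 reads, 42.9%, 44.1% and 41.5% carried C, while C made up 21.3% of all intronic bases of these genes. The base before was C in 38.4%, 40.5% and 38.7%. G lay a further base upstream in 33.7% to 35.0%, against 22.4% of intronic bases, and A lay 1 base downstream in 37.7% to 38.7% and at the next base in 37.1% to 39.6%, against 26.3%. In the promoter windows G was the most frequent base at the top position, counted at 1 position per gene. The base composition of those windows was not computed, so this cannot be set against the intronic values.

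The 3 libraries ranked genes alike. Over 14340 coding genes with at least 10 reads on average, Pearson's r of log2 RPM was 0.990, 0.989 and 0.993 for the pairs of replicates 1 and 2, 1 and 3, and 2 and 3. Spearman's rho was 0.992, 0.992 and 0.995. These correlations are across genes, which are not independent replicates. Of the genes, 2.87%, 2.78% and 0.858% differed over 2-fold in these pairs. The common biological coefficient of variation (BCV), the relative spread of a gene's true level between libraries, was 12.7%, and it was 9.35% with at most 5 reads per position. By pairs it was 13.2%, 14.5% and 10.2%.

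Each library had genes that stood apart. Among 10830 coding genes with at least 100 reads on average, replicate 1 had 100 genes over 2-fold lower than both other libraries and 5 that were higher. In 85 of the 100, over 50% of the reads lay within 25 bases of 1 position, and with at most 5 reads per position only 5 genes were lower. Replicate 2 had 1 higher and 4 lower gene. Replicate 3 had 26 higher and 1 lower, and 24 and 1 with at most 5 reads per position.

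The 5 genes with the largest BCV of 7010 with at least 500 reads were Onecut1 (64.0%), Ttn (63.1%), Plk3 (53.2%), Lpin1 (52.4%) and Usp13 (51.3%), beside a median of 9.96%. Lpin1, a phosphatidate phosphatase of lipid synthesis, held 17971, 17839 and 107185 reads, and Plk3, a stress kinase, 771, 1122 and 5652. Onecut1, a hepatocyte transcription factor, held 1515, 1435 and 13120. In these 3 genes replicate 3 was high. The other libraries were close to each other in Lpin1 and Onecut1 but not in Plk3. Ttn, with 93, 973 and 1238 reads, and Usp13, with 213, 1407 and 1023, were instead low in replicate 1. Named after their values were seen, Alas1 (4311, 4485 and 24433 reads), the first enzyme of heme synthesis, and Cish (235, 236 and 1266), an inhibitor of cytokine signalling, were also high in replicate 3.

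Pancreatic acinar genes moved with replicate 3 as well. Listed after the lipase gene Pnlip was seen, 9 such genes together held 1.47, 1.04 and 30.1 RPM, and the highest, the protease gene Ctrb1, reached 1.12 RPKM in replicate 3. Their part in the values of other genes was not tested. Ctrb1 was thus below the lowest of the hepatocyte markers, Hnf4a, which had 5.71 RPKM on average over the 3 libraries.

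The 3-month libraries were set against the 6 libraries of 12 and 18 months in 8 measures of the landscape, by a two-sided exact permutation test over all 84 assignments, whose smallest possible p is 0.0119. None passed at an adjusted p under 0.05, and the groups overlapped in every measure. The mitochondrial share was 0.674%, 0.476% and 0.529% at 3 months and 0.628% to 1.21% at the other ages, a difference of the means of -0.393 percentage points (exact permutation p = 0.0357, adjusted p = 0.159). The share of the 100 top genes was 27.0% against 25.2% (difference 1.83, exact permutation p = 0.0595, adjusted p = 0.159). The share outside genes was 9.90% against 8.98% (difference 0.920, exact permutation p = 0.0595, adjusted p = 0.159).

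The protein-coding share was 65.1% against 67.3%, the lncRNA share 11.9% against 11.3%, the small RNA share 7.26% against 6.85% and the share of reads at the last base of internal exons 0.514% against 0.471%. The median exon over intron density was 3.28 against 2.97. Exact permutation p-values of these 5 measures were 0.25 to 0.679 (adjusted p 0.5 to 0.679). A p that misses the threshold does not show that the ages were alike, since 3 libraries against 6 give few assignments.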

How the data were processed

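The authors deposited counts: for each library and strand, the number of reads at every base of the genome that had one, unscaled. Per the submitters' notes reads were trimmed with cutadapt 1.13 and aligned to GRCm38, with STAR 2.7.3a and bedtools 2.29.2 also named. Per the methods the position kept was the read's 5′ end, which marks the RNA's 3′ end. The methods selected genes by uniquely aligned reads and scaled by primary alignments, without saying whether the deposited positions hold only unique ones. The treatment of PCR duplicates in these libraries is not given in the sources used here, so counting at most 5 reads per position was an alternative throughout, and values of near-identical genes are uncertain.

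Genes came from GENCODE vM21. The TSS, TES and exons were those of 1 transcript per gene, the one with the longest coding sequence. Chromosomes X and Y and scaffolds were not used here. A base under several genes of one strand went to a class in the order small RNA, mitochondrial, coding, lncRNA, pseudogene and other. Per-gene contrasts (window against body, exon against intron) used edgeR 4.0.16 in R 4.3.3, glmQLFit with library as block and an offset for region length, and DESeq2 1.42.0 as alternative. On simulated counts of the promoter contrast (2075 genes) 97% of log2 changes of 1 and 100% of those of 2 were recovered, and 6.19% of calls were false. These counts were drawn from the model that the test assumes, with fewer genes changed than were called in the data. The rates therefore need not hold for the real contrast. Other ages were compared by exact permutation. The named genes were the 12 top coding genes, the 3 top genes of other classes, the 5 highest and 5 lowest called ratios per contrast, up to 4 top members of each list, the 5 genes of largest spread and the 8 deepest promoter positions. Some genes that this rule names are not reported here, and other list members named in the text were chosen after their values were seen. Members, lists and tests were chosen with earlier results of these data known. Counts fix precision only for sampling error, and whether each read is an independent molecule is not given in the sources used here.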

Additional observations from a re-analysis of the deposited data

How the results depend on the processing

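Counting at most 5 reads per position moved the class shares most: coding 86.5%, lncRNA 2.88%, small RNA 0.406%, mitochondrial 0.124%, pseudogene 0.468%, other 0.0509%, antisense 3.21% and outside genes 6.36%. It moved the 100 top genes to 16.4%, exon-lower genes to 70, the mean Pearson correlation to 0.993 and the BCV to 9.35%. Positions of exactly 1 gene gave 1.00% small RNA, 62.8% coding and 29.2% for the 100 top genes. These held 19.7% among coding genes only and 18.8% without Gm26917 and Gm42418. With any read as the minimum, the mean correlation was 0.994. Without a minimum RPKM the promoter calls were 4400 higher and 871 lower (median log2 1.11), the TES calls 2136 and 1141 (0.057) and the exon calls 5812 and 385, since more genes were tested. Coding ends gave 220 lower at the promoter (median 1.17) and 1615 higher and 186 lower at the TES (1.20). Intronic body positions gave a promoter median of 1.49, the window 20 to 100 bases after the TSS 1.98, and exonic body positions 584 higher, 1060 lower and a median of -0.35, which reversed it. The cause of these shifts was not tested.

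Of the named genes, some ratios changed sign and passed in the other direction: with coding ends Mup12 (-6.63), Mup11 (-1.0) and Fgb (2.09) at the TES, and with exonic body positions Rps13 (2.62) and Rpsa (3.08) at the promoter. Others changed sign and no longer passed: with coding ends Steap1 (-3.79, adjusted p = 0.3) and Csnk1e (-0.13, adjusted p = 0.65) at the promoter, with the limit of 5 reads Taco1 (0.19, adjusted p = 0.2), and without small RNA positions Rpl37 at the promoter (0.042, adjusted p = 0.87) and in exons (0.27, adjusted p = 0.17). Kept in direction but no longer passing were Csnk1e in the window 20 to 100 bases after the TSS (0.22, adjusted p = 0.7) and, with exonic body positions, Taco1 (-0.23, adjusted p = 0.22) and Rpl37 (-0.35, adjusted p = 0.12). Without small RNA positions the median exon ratio of the ribosomal protein genes turned to 1.22. This setting and the use of whole spans were chosen after seeing the data. Leaving out each library in turn gave 1341 to 1367 promoter-higher, 834 to 889 TES-higher and 1753 to 1827 exon-higher genes. DESeq2 gave 1354, 838 and 1809. The other ages: none of 104 alternatives passed at an adjusted p under 0.05, and the mitochondrial difference ranged from -0.458 to -0.0431. With so few assignments no measure could have passed alone after adjustment, so this does not show that the ages were alike. Replicate numbers are shared between ages, and deviations of same-numbered libraries correlated from -0.295 to 0.191. Whether same-numbered libraries were prepared together cannot be told from this. With the replicate number as a block (27 assignments) the mitochondrial difference was -0.393 with exact permutation p = 0.111.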
